A study of Homo sapiens with 12 samples.

Results

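The 49 genes described here encode the machinery of DNA replication and the regulators of entry into S phase, and they were chosen by name from what their proteins do, with earlier results of these data known. They cover 8 roles: origin licensing (10 genes), helicase activation (6), the sliding clamp and its loader (6), polymerases and primase (9), Okazaki fragment joining and single-strand binding (5), nucleotide supply (4), E2F and cyclin E control (5), and chromatin assembly and histone mRNA (4). All 49 were found among 57527 genes with a matched transcript, and all 49 were among the 16789 genes tested. They were read in HK-2 cells, a line of human proximal tubule epithelium immortalised with papillomavirus oncogenes, whose E7 protein binds RB and so loosens its hold on E2F factors. The cells were kept for 72 h either in medium holding suspended 2,8-dihydroxyadenine (DHA), a poorly soluble purine that crystallises in kidney tubules, at 60, 120 or 240 ug/ml, or in medium alone (control). Each of the 4 groups held 3 poly(A)-selected RNA libraries of this 1 line. No carrier for the suspension is named in the sources used here, and they do not say whether the 3 libraries of a group were separate cultures, so a p-value covers the spread between libraries alone, which may be technical.

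Replication begins in G1, when the origin recognition complex with CDC6 and CDT1 loads the MCM2 to MCM7 helicase ring onto DNA. At the start of S phase cyclin E and CDC25A raise kinase activity, CDC45 and the GINS complex join the ring and start unwinding, and polymerases held by the PCNA clamp copy both strands while RPA coats the single strand and FEN1 and LIG1 join Okazaki fragments. Most of these genes are transcribed late in G1 by E2F factors once RB lets go of them, and adult tubule cells, which divide rarely, keep them low until injury brings the cells back into the cycle.

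Promoters of 42 of the genes were found in a RefSeq table on GRCh38.p14 that gives 250 bases before and 50 after the start of transcription. An E2F site, spelled TTTCCCGC, TTTCGCGC, TTTGCCGC or TTTGGCGC on either strand, stood in 21 of these 42 promoters, against 778 of 15940 promoters of genes tested (4.88%) and 1164 of 35116 promoters in the table (3.31%). A promoter with several or overlapping sites was counted once. Origin licensing genes (6 of 8 promoters) and E2F and cyclin E genes (3 of 4) held the site most often, nucleotide supply and chromatin genes (1 of 4 each) least often. A match is a description of letters and not evidence of binding. Below are the 250 bases before the start, 5′ to 3′ on the gene's strand, with site letters in capitals, for 4 of the 8 genes that hold the site and rose at 2 or more doses, and for RRM2, which rose and shows none of these letters. The other 4 of the 8, CDT1, POLA1, POLE and LIG1, hold 1 site each. The windows are chr20:33686386-33686635 (minus strand) for E2F1, chr3:48188418-48188667 (minus) for CDC25A, chr19:4909251-4909500 (plus) for UHRF1, chr7:100101398-100101647 (minus) for MCM7 and chr2:10122489-10122738 (plus) for RRM2.
E2F1: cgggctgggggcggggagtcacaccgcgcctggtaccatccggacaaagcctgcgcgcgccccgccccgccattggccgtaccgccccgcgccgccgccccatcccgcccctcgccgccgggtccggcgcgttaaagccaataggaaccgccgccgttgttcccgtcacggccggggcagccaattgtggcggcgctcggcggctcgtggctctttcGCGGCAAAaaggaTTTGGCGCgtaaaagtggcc
CDC25A: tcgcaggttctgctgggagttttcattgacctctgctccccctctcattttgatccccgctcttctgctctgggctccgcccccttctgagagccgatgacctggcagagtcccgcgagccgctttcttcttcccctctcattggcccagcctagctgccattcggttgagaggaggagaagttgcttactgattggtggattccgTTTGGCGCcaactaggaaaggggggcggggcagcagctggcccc
UHRF1: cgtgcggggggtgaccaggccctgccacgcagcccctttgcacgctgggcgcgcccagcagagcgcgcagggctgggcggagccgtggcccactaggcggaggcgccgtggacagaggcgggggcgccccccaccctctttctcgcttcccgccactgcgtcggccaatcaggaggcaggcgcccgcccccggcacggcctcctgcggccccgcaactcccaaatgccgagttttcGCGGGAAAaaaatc
MCM7: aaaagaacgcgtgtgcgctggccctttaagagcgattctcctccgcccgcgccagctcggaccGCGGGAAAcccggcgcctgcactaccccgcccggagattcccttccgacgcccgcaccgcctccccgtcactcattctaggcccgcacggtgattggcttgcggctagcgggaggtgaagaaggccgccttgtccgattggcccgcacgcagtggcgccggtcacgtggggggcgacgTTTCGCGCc
RRM2: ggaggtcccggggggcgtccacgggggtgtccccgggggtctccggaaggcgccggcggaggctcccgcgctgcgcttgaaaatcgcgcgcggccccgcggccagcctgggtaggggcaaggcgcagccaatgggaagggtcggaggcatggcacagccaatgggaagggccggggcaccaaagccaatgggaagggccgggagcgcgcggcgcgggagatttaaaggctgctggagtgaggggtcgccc
E2F1 carried sites on opposite strands whose leftmost bases lie 33 and 20 bases before the start, CDC25A had its site 44 bases and UHRF1 14 bases before the start, and MCM7 had sites at 187 and 9 bases. Genes with the site had median log2 fold changes of 0.31, 0.28 and 0.27 at 60, 120 and 240 ug/ml against control, and genes without it 0.23, 0.20 and 0.22 (21 genes each). Of the 21 genes with the site 9, 8 and 7 were called higher at the 3 doses, and of the 21 without it 5, 9 and 10.

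Values are the deposited normalized signal, which was read as a level per transcript length, summed over each gene's matched transcripts. Library totals ran from 791808 to 969479 at 240 ug/ml and from 1143851 to 1228979 in control. The median gene had a log2 fold change of -0.03 at each dose as deposited, but of 0.14, 0.27 and 0.33 at 60, 120 and 240 ug/ml once all libraries were given the same total, so every change below is relative to the deposited scale. Of 13 proximal tubule markers 4 were tested, and LRP2, SLC22A6 and SLC22A8 stood at 0 in every library, while in control PAX8 (230.5 ± 7.40) and GGT1 (176 ± 18.4) were well expressed (SD, n = 3). In bulk RNA, more cells in S phase and more mRNA per cell cannot be told apart.

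The replication genes were on balance higher with DHA, by modest amounts. At 60 ug/ml 16 of 49 (32.7%) rose and RPA3 fell, where 8.89% of all genes tested were called higher and 10% lower (limma, Benjamini-Hochberg adjusted p under 0.05). At 120 ug/ml 19 (38.8%) rose and RPA3 fell, against 15.9% higher and 20.8% lower over all genes. At 240 ug/ml 20 (40.8%) rose and RPA3 fell, against 19.7% and 23.5%. Their median log2 fold change on the log2(signal + 1) scale was 0.25, 0.23 and 0.24 at the 3 doses, beside -0.03 for all genes at each, and with equal totals it was 0.44, 0.58 and 0.67. The median at 60 ug/ml was 0.14 without the third library at that dose. Every DHA library stood above every control library for 21, 24 and 27 of the 49 at the 3 doses, where 16.2%, 21.7% and 24.2% of all genes did so. Every DHA library stood below every control library for 2 genes at each dose, where 20.3%, 27.3% and 28.7% of all genes did so. The 3 comparisons share their control libraries.

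Called higher at all 3 doses were 10 genes, ORC1, CDT1, MCM4, POLD1, POLE, LIG1, RRM2, E2F1, CDC25A and CHAF1A. RPA3 was called lower at all 3, and 22 genes were called at no dose. The group mean was highest at 240 ug/ml for 21 genes, at 120 for 9, at 60 for 13 and in control for 6, and it was lowest in control for 35. The count of replication genes higher at 60 ug/ml fell when single libraries were left out. It was 7 without the first control library, 10 without the second control library and 10 without the third library at 60 ug/ml. Over all genes tested the count higher at that dose fell too, from 1492 to 920, 1122 and 1201 in the same order. At 240 ug/ml the count of replication genes was 12 without the first or without the second control library. It was 13 without the third library at 240 ug/ml. Over all genes tested the count at 240 ug/ml fell from 3306 to 2689, 2697 and 2747 in the same order. The loss of calls was thus not limited to the replication genes. Calls made under all 26 alternative settings numbered 3 of 17 at 60 ug/ml (CDC25A, E2F1 and POLD1), 12 of 20 at 120 ug/ml and 12 of 21 at 240 ug/ml. With the trend on GC content subtracted CDT1, MCM2, MCM5, MCM7, POLD2, LIG1 and CHAF1A lost their calls at 60 ug/ml (limma adjusted p 0.0521 to 0.367), TK1 its call at 120 (0.0615) and CCNE2 its call at 240 ug/ml (0.0603). With no filter on low values 7 calls were lost at 60, 4 at 120 and 6 at 240 ug/ml, at limma adjusted p of 0.0512 or more.

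**Figure D1:**
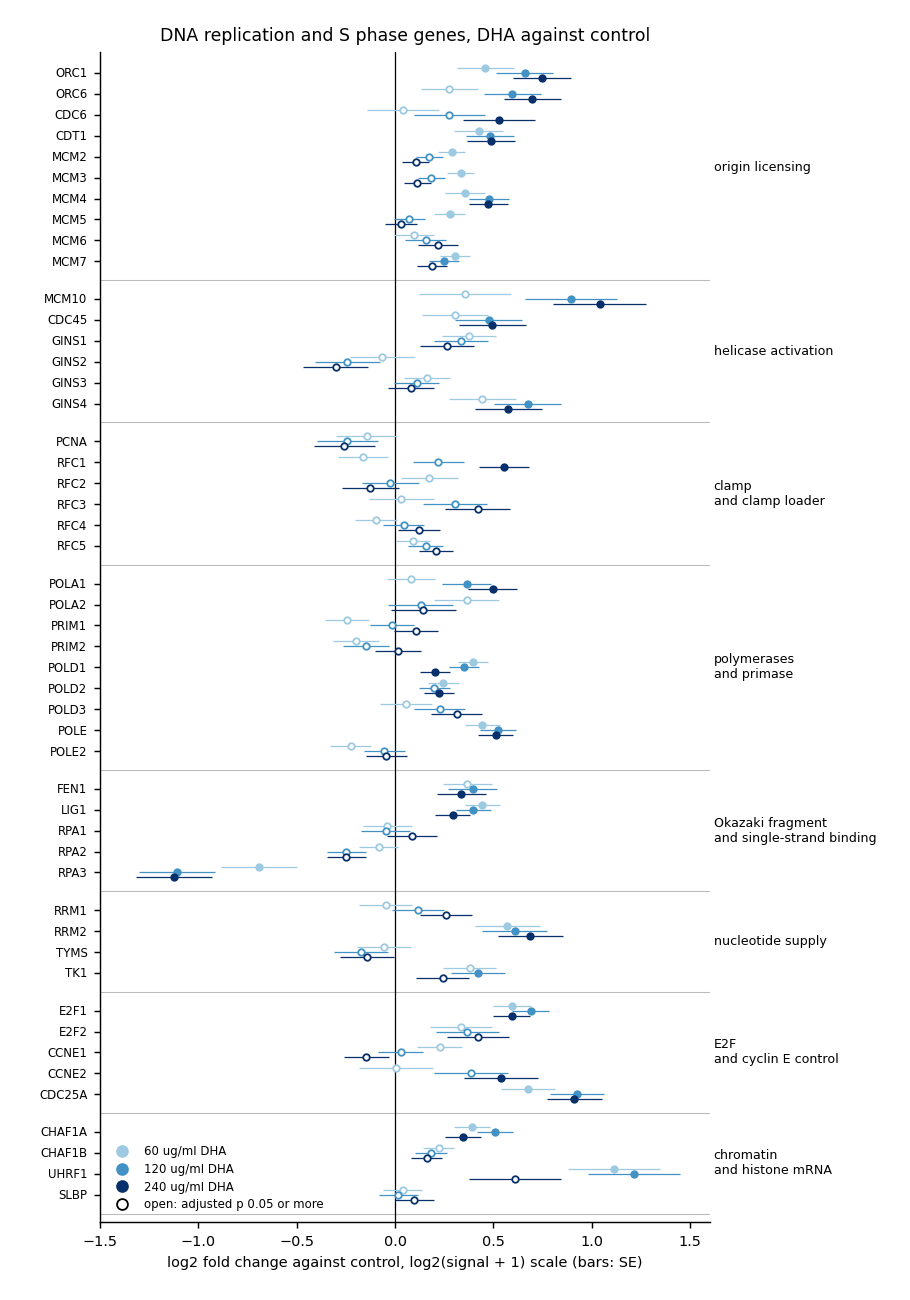
Log2 fold change of each of the 49 genes against control at 60, 120 and 240 ug/ml DHA (light to dark blue), with the standard error as bar, grouped by role. Filled points have a limma adjusted p under 0.05: 16, 19 and 20 genes lie to the right and RPA3 alone lies to the left at each dose.

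Among the genes of E2F and cyclin E control, E2F1 and CDC25A rose at every dose and CCNE2 rose at 240 ug/ml, while E2F2 and CCNE1 were not called against control. E2F1, the activator that switches on many of the other genes here (ENSG00000101412.12, chromosome 20, 33675683 to 33686404, minus strand), read 24.2, 28.3 and 31.7 in control, 41.8, 40.8 and 45.3 at 60, 45.0, 47.2 and 44.6 at 120, and 40.4, 46.5 and 41.1 at 240 ug/ml. All 9 DHA libraries lay above the 3 controls, with no further step between the doses. The log2 fold changes were 0.59, 0.69 and 0.59 (SE 0.10 each) with limma adjusted p of 0.00235, 0.000295 and 0.000532. CDC25A, the phosphatase that removes inhibitory phosphates from cyclin-dependent kinases (ENSG00000164045.11, chromosome 3, 48157146 to 48188402, minus strand), read 8.9, 9.0 and 10.6 in control, 14.2, 14.2 and 19.3 at 60, 16.5, 18.5 and 22.0 at 120, and 17.4, 17.9 and 21.0 at 240 ug/ml. It rose by 0.68, 0.92 and 0.91 (SE 0.14 each, limma adjusted p = 0.00675, 0.000441 and 0.000347), again without overlap of DHA and control libraries.

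Of the E-type cyclins, which drive CDK2 at the G1 to S border, CCNE2 was called against control and CCNE1 was not. CCNE1 averaged 26.4 ± 1.59 at 60 ug/ml and 20.2 ± 2.57 at 240 ug/ml, against 22.5 ± 3.04 in control (SD, n = 3 each), and neither dose was called (limma adjusted p = 0.202 and 0.330). CCNE2 stood at 26.4, 27.2 and 32.5 at 240 ug/ml, against 15.9, 17.3 and 26.3 in control (log2 fold change 0.54, SE 0.19, limma adjusted p = 0.0371). Its highest control library nearly reached the lowest one at 240 ug/ml, and the call ended without any 1 of 4 libraries, the first or second control or the second or the third at 240 ug/ml (limma adjusted p 0.0633 to 0.141). E2F2, a second activating E2F, was low in every library, between 1.0 and 2.4.

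**Figure D2:**
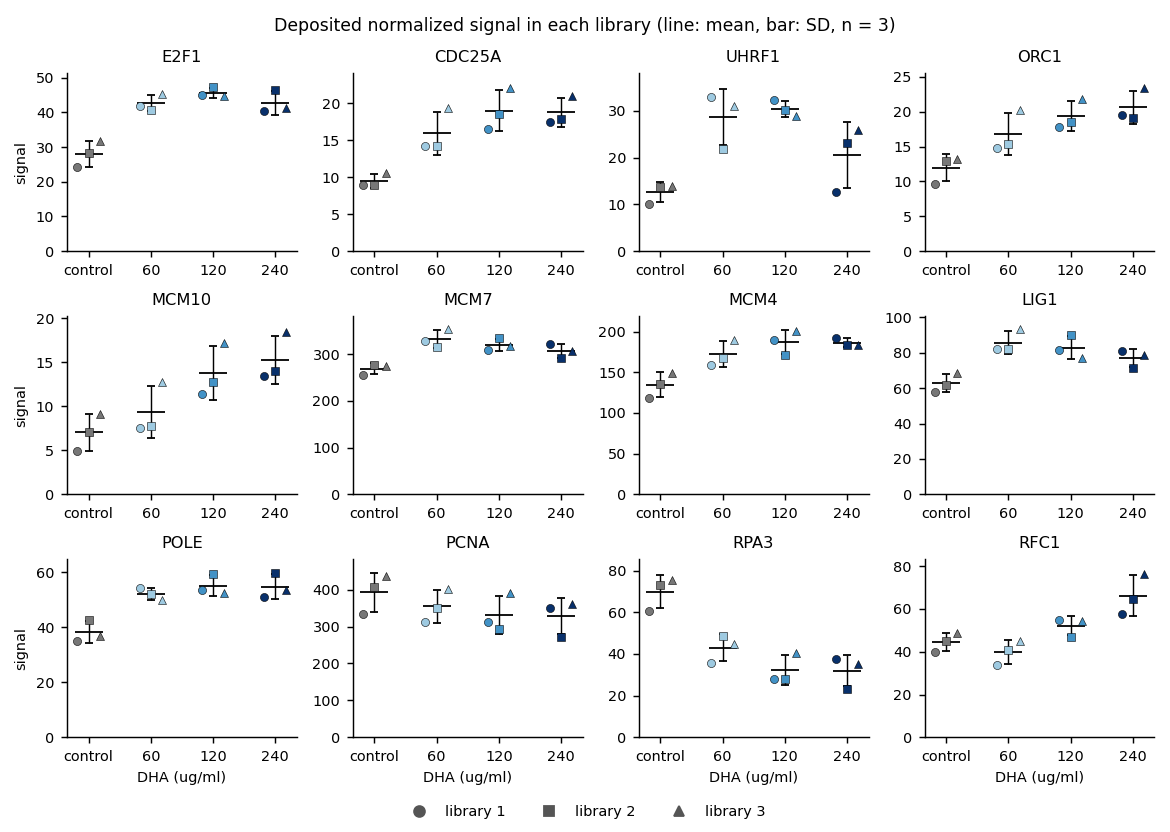
Deposited normalized signal of 12 genes in each library (circle, square and triangle for libraries 1, 2 and 3), with the group mean as line and the SD as bar (n = 3), by DHA dose in ug/ml. E2F1, CDC25A, ORC1 and POLE stand above control at every dose, RPA3 below it, RFC1 is highest at 240 ug/ml, and the UHRF1 libraries at 240 ug/ml spread from 12.6 to 25.9.

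Origin licensing genes rose at 7 of 10 at 60 ug/ml (70%) and 5 of 10 at 120 and at 240 ug/ml (50% each), and none fell. Over all genes 8.89%, 15.9% and 19.7% were called higher and 10%, 20.8% and 23.5% lower at the 3 doses. ORC1, the largest subunit of the origin recognition complex (chromosome 1, 52372829 to 52404459, minus strand), read 9.7, 13.0 and 13.2 in control, 14.8, 15.4 and 20.3 at 60, 17.8, 18.5 and 21.8 at 120, and 19.5, 19.1 and 23.4 at 240 ug/ml. Its log2 fold changes were 0.46, 0.66 and 0.75 (SE 0.15 each, limma adjusted p = 0.0476, 0.00455 and 0.0017), and no DHA library fell within the control range. The call at 60 ug/ml ended without any 1 of 10 libraries, all but the third at 120 and the third at 240 ug/ml (limma adjusted p 0.0524 to 0.175). ORC6, the smallest subunit, read 51.5, 52.7 and 58.3 at 240 ug/ml, against 28.7, 30.3 and 41.1 in control (log2 fold change 0.70, SE 0.14, limma adjusted p = 0.00255). Summed over protein-coding transcripts alone it was 0.29 at that dose and 0.41 at 120 ug/ml, and neither was called (limma adjusted p = 0.224 and 0.096). CDT1, which brings the helicase ring to the origin, rose by 0.42, 0.48 and 0.49 at the 3 doses (SE 0.12 each, limma adjusted p = 0.0328, 0.00957 and 0.00753). CDC6, its loading partner, was called only at 240 ug/ml, at 51.9 ± 7.44 against 35.9 ± 7.54 in control (limma adjusted p = 0.0354, and 0.0501 to 0.128 without the first or second control or the first or the third library at 240 ug/ml).

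On the deposited scale the 6 subunits of the helicase ring did not move alike. MCM4 rose at all 3 doses, to 192.5, 183.1 and 183.4 at 240 ug/ml, against 118.7, 135.5 and 149.2 in control (log2 fold change 0.47, SE 0.10, limma adjusted p = 0.00283). MCM7 read 329.0, 316.3 and 354.9 at 60 ug/ml, against 255.1, 277.7 and 275.2 in control (0.31, SE 0.08, limma adjusted p = 0.0175), and was called at 120 ug/ml too (0.25, limma adjusted p = 0.0242) but not at 240 ug/ml (0.19, limma adjusted p = 0.0673). MCM3 read 165.4, 175.7 and 176.6 at 60 and 149.9, 140.5 and 153.8 at 240 ug/ml, against 128.3, 140.5 and 141.7 in control. MCM2, MCM3 and MCM5 were called at 60 ug/ml alone (log2 fold changes 0.29, 0.33 and 0.28), with group means of 147, 148 and 142 at 240 ug/ml, against 137, 137 and 139 in control. With equal library totals MCM5 was called at 120 and 240 ug/ml too (0.44 and 0.46, limma adjusted p = 0.00682 and 0.00404). MCM6 was called at no dose, at 91.4 ± 5.92 at 240 ug/ml against 78.5 ± 7.66 in control. Without the first control library the calls at 60 ug/ml of MCM2, MCM4, MCM5 and MCM7 were lost (limma adjusted p 0.0681, 0.120, 0.130 and 0.0784), as was that of CDT1 (0.127), and the call of MCM7 at 120 ug/ml (0.0999). Leaving out the second control library or any 1 library at 60 ug/ml ended 1 or more of these calls too, with limma adjusted p of at most 0.115 (MCM5, without the first library at 60 ug/ml), and MCM7 lost its call at 120 ug/ml also without the second library at that dose (0.0856).

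Helicase activation genes were called higher at 0, 3 and 3 of 6 at 60, 120 and 240 ug/ml (0%, 50% and 50%, beside 8.89%, 15.9% and 19.7% of all genes). MCM10, which helps the loaded helicase start to unwind (chromosome 10, 13161554 to 13211104, plus strand), read 4.9, 7.1 and 9.1 in control, 7.5, 7.7 and 12.7 at 60, 11.4, 12.7 and 17.2 at 120, and 13.4, 14 and 18.4 at 240 ug/ml. Both higher doses lay wholly above control, and its log2 fold change of 1.04 at 240 ug/ml (SE 0.24, limma adjusted p = 0.00413) was the highest of the 49 genes at that dose. At 120 ug/ml it was 0.89 (limma adjusted p = 0.0114, 0.0503 without the first control library). CDC45, which binds the ring as it starts, stood at 42.2, 32.8 and 40.9 at 240 ug/ml, against 23.2, 26.7 and 31.7 in control (0.49, SE 0.17, limma adjusted p = 0.0345). Its call at 240 ug/ml ended without the first or second control or the first or the third library at 240 ug/ml (limma adjusted p 0.0818 to 0.127), and that at 120 ug/ml (0.48, limma adjusted p = 0.0459) without any 1 of 7 libraries (0.0507 to 0.160).

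Of the 4 GINS subunits GINS4 alone was called. It read 29.7, 29.9 and 32.6 at 120 ug/ml, against 16.7, 18.4 and 21.8 in control (0.68, SE 0.17, limma adjusted p = 0.00932), and was called at 240 ug/ml too (0.58, limma adjusted p = 0.0173, or 0.0511 to 0.0693 without the first or second control or the third library at 240 ug/ml). GINS1, GINS2 and GINS3 were called at no dose. GINS2 averaged 26.5 ± 5.88 at 240 ug/ml against 32.5 ± 4.27 in control, a log2 fold change of -0.30 with a limma adjusted p of 0.165. Exons of GINS4 share 1159 bases with an antisense gene on the opposite strand, and no source used here gives the strand setting of the quantification, so reads of the 2 may not have been told apart. The same limit holds for CCNE2, which shares 1629 exon bases with INTS8, for MCM2 (1113 with an antisense gene) and for MCM7 (392 with AP4M1), and POLD1 shares 426 with a second gene on its own strand.

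Clamp and clamp loader genes were the role with fewest calls, 0, 0 and 1 of 6 at the 3 doses (0%, 0% and 16.7%). Over all genes 8.89%, 15.9% and 19.7% were called higher, so the share at 240 ug/ml lay near that over all genes. PCNA, the sliding clamp that holds polymerases on DNA, had the highest level of the 49 genes and read 332.7, 407.6 and 436.8 in control, 311.2, 350.6 and 401.0 at 60, 311.7, 293.6 and 390.3 at 120, and 350.6, 271.7 and 362.3 at 240 ug/ml. The groups overlapped, and its log2 fold changes of -0.15, -0.24 and -0.26 (SE 0.15 each) were not called (limma adjusted p = 0.567, 0.246 and 0.201). PCNA has 3 named pseudogenes, so its reads may have been split among copies. RFC1, the large subunit of the loader that opens the clamp (chromosome 4, 39287456 to 39366375, minus strand), read 40.1, 45.2 and 48.7 in control, 33.8, 40.9 and 45.2 at 60, 55.0, 47.0 and 54.5 at 120, and 57.6, 64.7 and 76.4 at 240 ug/ml. It rose at 240 ug/ml, by 0.55 (SE 0.13, limma adjusted p = 0.00482), with all 3 libraries above control. RFC2 to RFC5, the small subunits, were called at no dose, with log2 fold changes at 240 ug/ml between -0.13 (RFC2) and 0.42 (RFC3, limma adjusted p = 0.0589).

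Polymerase and primase genes rose at 3, 3 and 4 of 9 at the 3 doses (33.3%, 33.3% and 44.4%, beside 8.89%, 15.9% and 19.7% of all genes). POLE, the catalytic subunit of the leading-strand polymerase (chromosome 12, 132623753 to 132687365, minus strand), read 35.0, 42.7 and 36.9 in control, 54.3, 52.1 and 50.0 at 60, 53.6, 59.4 and 52.6 at 120, and 51.1, 59.8 and 53.5 at 240 ug/ml. It rose by 0.44, 0.52 and 0.51 (SE 0.09 each, limma adjusted p = 0.00667, 0.00104 and 0.000898) with no overlap. Its accessory subunit POLE2 stood at 36.5 ± 2.91, 41.2 ± 2.46 and 41.8 ± 6.63 at 60, 120 and 240 ug/ml, beside 42.8 ± 1.5 in control, and was called at no dose. POLD1, the catalytic subunit of the lagging-strand polymerase, read 49, 47.4 and 47.2 at 60 ug/ml, against 35.3, 37.7 and 35.4 in control (0.40, SE 0.08, limma adjusted p = 0.00491). At 240 ug/ml it read 43.6, 44.0 and 37.8, with the last just above the highest control library (0.20, limma adjusted p = 0.0484, and 0.0526 to 0.144 without any 1 of 10 libraries, all but the third at 120 and the third at 240 ug/ml).

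POLA1, the catalytic subunit of the polymerase that lays down the first DNA on each RNA primer, rose at 120 ug/ml (0.36, limma adjusted p = 0.0368) and at 240 ug/ml (0.50, SE 0.12, limma adjusted p = 0.00694), to 18.3, 20.2 and 21.2 at 240 ug/ml against 11.7, 13.5 and 16.6 in control. The call at 120 ug/ml ended without the first or second control or the second or the third library at 120 ug/ml (limma adjusted p 0.088 to 0.148). Its partner POLA2 and the primase subunits PRIM1 and PRIM2 were called at no dose, at log2 fold changes of 0.14, 0.11 and 0.01 at 240 ug/ml. POLD2, a POLD1 partner, was called at 60 and 240 ug/ml (0.25 and 0.22, limma adjusted p = 0.0473 and 0.0365), and the calls ended without any 1 of 9 and of 6 libraries, the 3 controls among them (limma adjusted p 0.0507 to 0.130). Over protein-coding transcripts alone POLD2 lost both calls (limma adjusted p = 0.0917 and 0.166) and POLD1 its call at 240 ug/ml (0.116).

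LIG1, the ligase that seals Okazaki fragments, read 81.9, 82.0 and 93.2 at 60, 81.5, 90.2 and 77.3 at 120 and 81.1, 71.4 and 78.7 at 240 ug/ml, against 58.1, 62.0 and 68.3 in control. All 9 DHA libraries lay above control, with log2 fold changes of 0.44, 0.40 and 0.29 (SE 0.09 each, limma adjusted p = 0.00665, 0.00511 and 0.0209). The call at 240 ug/ml ended without the first or second control or the first or the third library at 240 ug/ml (limma adjusted p 0.0595 to 0.0875), and over protein-coding transcripts alone (0.17, limma adjusted p = 0.194). FEN1, the nuclease that trims the RNA-bearing flap before joining, was called at 120 and 240 ug/ml (0.39 and 0.34, limma adjusted p = 0.0272 and 0.0466), and lost the calls without any 1 of 4 libraries at 120 and of 7 at 240 ug/ml, the first and second controls among them (0.0544 to 0.163).

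RPA3, the smallest subunit of the single-strand binding trimer RPA (ENSG00000106399.11, chromosome 7, 7636518 to 7718607, minus strand), was alone among the 49 genes in being called lower against control. It read 60.8, 73.2 and 75.7 in control, 35.8, 48.4 and 44.8 at 60, 28.1, 28.1 and 40.5 at 120, and 37.4, 23.3 and 35.4 at 240 ug/ml, and every DHA library lay below every control library. The log2 fold changes were -0.69, -1.11 and -1.12 (SE 0.19 each, limma adjusted p = 0.0275, 0.00111 and 0.000759), and the call at 60 ug/ml ended without the second or the third control or the first or the third library at 60 ug/ml (limma adjusted p 0.0526 to 0.106). Its trimer partners were not called: RPA1 averaged 125 ± 18.5 at 240 ug/ml against 117 ± 9.45 in control, and RPA2 85.3 ± 11 against 101 ± 5.60 (limma adjusted p = 0.613 and 0.0622). Every RPA2 library at 120 and 240 ug/ml still lay below control (80.4 to 92.9 and 72.6 to 91.7, against 95 to 106.1). Of the 49 genes 12, 10 and 8 had a log2 fold change below 0 at 60, 120 and 240 ug/ml. PCNA, GINS2, RPA2, TYMS and POLE2 were among them at each dose.

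RPA3 is a short gene, with a signal-weighted mean transcript length of 952 bases, and short genes were lower as a class. Among the 1273 shortest of the 12731 protein-coding genes tested, 20.2%, 43.9% and 51.1% were called lower at the 3 doses and the median log2 fold changes were -0.20, -0.38 and -0.47. With the trend on length subtracted RPA3 stood at -0.57, -0.86 and -0.84 and was called lower at each dose (limma adjusted p = 0.0391, 0.00272 and 0.00247). With equal library totals it stood at -0.49, -0.75 and -0.70, with limma adjusted p of 0.0574, 0.0034 and 0.0037, so the call at 60 ug/ml was lost.

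Among the nucleotide supply genes RRM2 rose at all 3 doses, TK1 rose at 120 ug/ml, and RRM1 and TYMS were called at none. RRM2, the small subunit of ribonucleotide reductase made in S phase (ENSG00000171848.14, chromosome 2, 10120698 to 10131419, plus strand), read 53.1, 74.9 and 95.4 in control, 104.3, 102.4 and 117.9 at 60, 110.6, 110.4 and 111.6 at 120, and 115.8, 106.4 and 130.8 at 240 ug/ml. All DHA libraries lay above control, whose own libraries spread widely (74.5 ± 21.1, SD, n = 3). The log2 fold changes were 0.57, 0.61 and 0.69 (SE 0.16 each, limma adjusted p = 0.0327, 0.0135 and 0.00574), and the call at 60 ug/ml ended without the first or second control or any 1 library at 60 ug/ml (0.0539 to 0.095). Without the first control library the changes themselves were 0.35 at 60 and 0.39 at 120 ug/ml, the second still called (limma adjusted p = 0.0864 and 0.0341). RRM1, its large partner, averaged 78.0 ± 6.66 at 240 ug/ml against 65.1 ± 6.18 in control (limma adjusted p = 0.138).

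TK1, which salvages thymidine, read 215.0, 211.0 and 242.0 at 120 ug/ml, against 137.7, 175.3 and 187.7 in control (0.42, SE 0.14, limma adjusted p = 0.0306), and lost the call without the first or second control or the first or the third library at 120 ug/ml (0.0507 to 0.127). TYMS, which makes thymidylate, read 237.9, 172.1 and 215.9 at 240 ug/ml, against 207.1, 232.6 and 246.4 in control, with overlapping groups (limma adjusted p = 0.439). TYMS exons share 967 bases with ENOSF1 on the opposite strand, RRM2 exons share 1077 bases with a second annotated gene on the same strand, and RRM2 and TYMS have 3 and 2 named pseudogenes, so reads of these copies may not have been told apart. POLA2 shares the most, 2012 exon bases with a second gene on its own strand, and RPA2 has 3 named pseudogenes.

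Within RRM2 the main coding transcript was called higher and the retained-intron transcripts named here were not, and the difference between them was not tested. RRM2-201, the main coding transcript, read 12.3, 27.7 and 46.6 in control, 51.9, 59.4 and 50.3 at 60, 69.4, 66.3 and 56.4 at 120, and 78.6, 68.7 and 76.9 at 240 ug/ml. It was called higher at 120 and 240 ug/ml in a fit over 61128 transcripts (log2 fold changes 1.30 and 1.52, limma adjusted p = 0.0257 and 0.00932). The retained-intron transcripts RRM2-209 and RRM2-207 averaged 13.5 and 18.8 at 240 ug/ml, against 19.8 and 16.4 in control, and were not called. The share of RRM2 signal on coding transcripts was 71.8%, 69.0% and 63.7% at 240 ug/ml, against 31.3%, 43.7% and 55.7% in control, without overlap. At 60 ug/ml the share was 56.3%, 63.7% and 48.3%, the last within the control range. No source used here says how reads were assigned to transcripts.

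**Figure D3:**
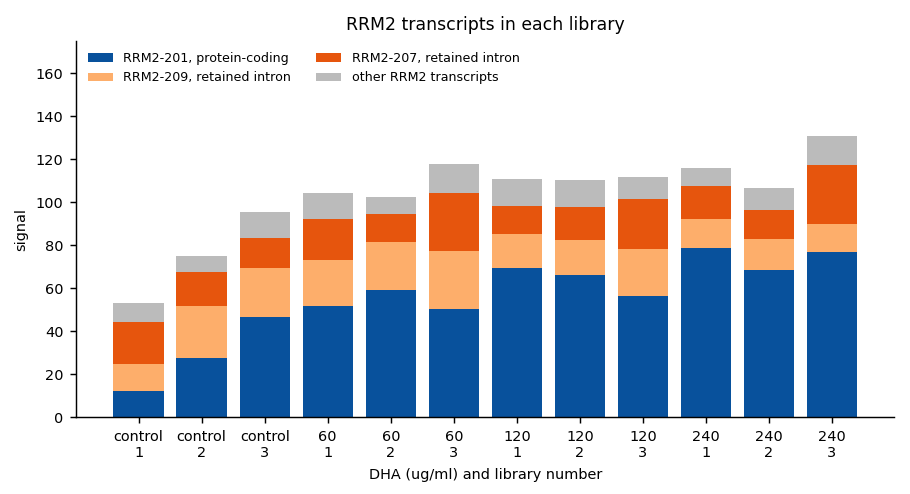
Deposited normalized signal of RRM2 transcripts stacked in each of the 12 libraries, by DHA dose (ug/ml) and library number. The coding transcript RRM2-201 (blue) stands between 68.7 and 78.6 at 240 ug/ml and between 12.3 and 46.6 in control, while the retained-intron transcripts (orange) show no such step.

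Over all 49 genes 418 transcripts were matched and 237 tested. At transcript level 4, 28 and 30 were higher and 2, 6 and 6 lower at 60, 120 and 240 ug/ml, where 1.68%, 6.76% and 9.74% of all transcripts were called higher and 1.75%, 8.13% and 10.6% lower. TK1-205, a coding transcript, averaged 40.7 at 240 ug/ml against 15.1 in control (log2 fold change 1.51, limma adjusted p = 0.0177). The retained-intron transcript ORC6-205 averaged 7.07 against 2.5 (1.19, limma adjusted p = 0.000525), so part of the ORC6 sum, whose call did not hold on coding transcripts alone, lay on transcripts that keep an intron. The coding share of ORC6 was 52.6%, 41.6% and 58.3% at 240 ug/ml, against 69.0%, 73.3% and 60.3% in control. PCNA-202, a coding transcript, fell at all 3 doses, to 5.33 at 240 ug/ml against 9.37 in control (-0.73, limma adjusted p = 0.00421). It was a small part of the PCNA sum, which averaged 392 in control and was called at no dose.

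In the chromatin group CHAF1A rose at every dose, UHRF1 rose at 60 and 120 ug/ml, and CHAF1B and SLBP were called at none. UHRF1, which reads hemimethylated DNA behind the fork and brings in DNMT1 (ENSG00000276043.4, chromosome 19, 4903080 to 4962154, plus strand), read 10.1, 13.8 and 14 in control, 33.0, 21.8 and 31.1 at 60, 32.3, 30.1 and 28.8 at 120, and 12.6, 23.0 and 25.9 at 240 ug/ml. Its log2 fold changes of 1.11 and 1.22 at 60 and 120 ug/ml (SE 0.23 each, limma adjusted p = 0.00783 and 0.00201) were the highest of the 49 genes at those doses. At 240 ug/ml the first library lay within the control range and the other two above it, and the change of 0.61 was not called (limma adjusted p = 0.0530). CHAF1A, the large subunit of the chaperone that deposits histones on new DNA, read 46.8, 44.7 and 50.9 at 240 ug/ml, against 33.0, 36.5 and 42.2 in control (0.35, SE 0.09, limma adjusted p = 0.00972), and its call at 60 ug/ml (0.39, limma adjusted p = 0.0133) ended without the first control library (0.0579). SLBP, which binds the stem-loop of replication-dependent histone mRNAs, averaged 163 ± 18.3 at 240 ug/ml against 152 ± 6.59 in control (limma adjusted p = 0.449).

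Between the outer doses 6 genes were called, 3 higher at 240 than at 60 ug/ml (RFC1, POLA1 and PRIM1) and 3 lower (MCM3, MCM5 and CCNE1), where 11.7% of all genes were called higher and 13.1% lower. RFC1 differed most, by 0.72 (SE 0.13, limma adjusted p = 0.0040), with 57.6, 64.7 and 76.4 at 240 against 33.8, 40.9 and 45.2 at 60 ug/ml, and it alone kept its call under all 26 alternatives. MCM5 read 144.8, 148.0 and 132.7 at 240 against 177.6, 164.8 and 163.0 at 60 ug/ml (-0.25, SE 0.08, limma adjusted p = 0.0414), and its difference was -0.02 with equal library totals. CCNE1 read 20.9, 17.4 and 22.4 at 240 against 24.6, 27.0 and 27.6 at 60 ug/ml (-0.37, SE 0.12, limma adjusted p = 0.0354). Each of the 5 calls other than RFC1 ended without any 1 of 4 to 9 libraries, with limma adjusted p of at most 0.148.

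Libraries of the same group differed from each other across most of the 49 genes. The first control library had the lowest value of its group for 45 of the 49 genes, and the third library had the highest for 38 in control, 40 at 60, 32 at 120 and 29 at 240 ug/ml, while the third library was highest for 31%, 36.8%, 37.2% and 29.2% of all genes. The share of all genes with their lowest value in the first control library was not counted. The median deviation of the 49 genes from their group mean ran from -0.16 in the first to 0.13 in the third control library, beside median changes against control of 0.23 to 0.25. Over all genes the median deviation was 0 in the first and -0.009 in the third control library. Without the third library of every group, a choice made after the data were seen, 6, 21 and 21 genes were higher and 0, 1 and 1 lower at 60, 120 and 240 ug/ml.

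**Figure D4:**
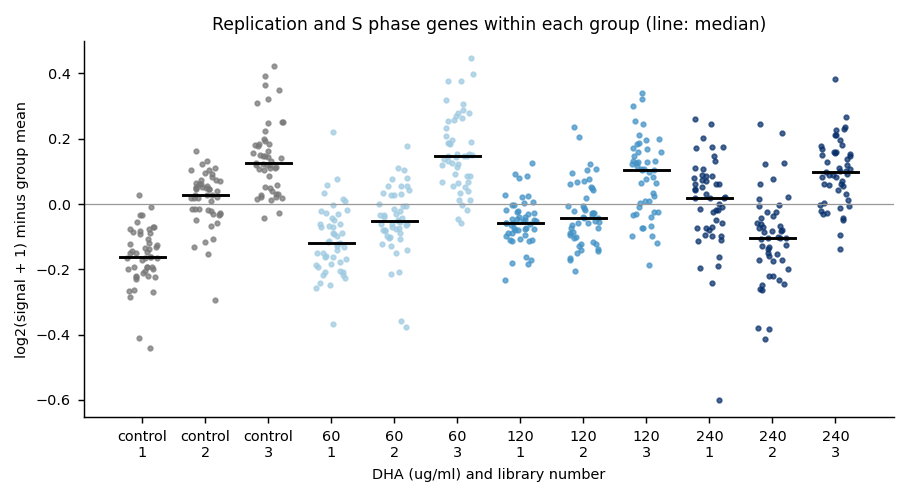
Deviation of each of the 49 genes from its group mean (log2(signal + 1) units) in each library, by DHA dose (ug/ml) and library number, with the median as line. The median stands highest in the third library of each group, between 0.10 and 0.15, and lowest in the first control library at -0.16.

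Other genes of the same pathways were read from lists chosen by function. Their counts stand beside the 8.89%, 15.9% and 19.7% of all genes called higher at 60, 120 and 240 ug/ml. Counts of genes that fell stand beside the 10%, 20.8% and 23.5% of all genes called lower. Of 30 further origin and fork factors 4, 13 and 16 rose (13.3%, 43.3% and 53.3%) and 2, 3 and 4 fell at the 3 doses. CLSPN, which links the fork to checkpoint signalling, averaged 19.6 ± 2.35 at 240 ug/ml against 8.43 ± 3.18 in control (log2 fold change 1.17, limma adjusted p = 0.00187), and TOP1, which relieves twist ahead of the fork, 98.2 ± 11.4 against 47.0 ± 4.19 (1.04). POLD4, the smallest subunit of the polymerase that holds POLD1, fell to 13.6 ± 0.55 against 37.9 ± 4.10 (-1.41). Of 30 mitosis genes 4, 17 and 20 rose (13.3%, 56.7% and 66.7%) and 0, 1 and 3 fell, with MKI67, a marker of cycling cells, at 72.9 ± 4.46 against 33.4 ± 6.52 (1.12). Of 15 fork repair genes 4, 7 and 9 rose (26.7%, 46.7% and 60%) and none fell, among them EXO1, a nuclease, and RAD54L, a recombination motor (0.86 each at 240 ug/ml).

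The RB, E2F and CDK list had calls both ways, with 2, 4 and 9 of 24 higher (8.33%, 16.7% and 37.5%). Lower were 4, 6 and 7 (16.7%, 25% and 29.2%), beside 10%, 20.8% and 23.5% over all genes. The higher shares at 60 and 120 ug/ml and the lower shares at 120 and 240 ug/ml lay near those over all genes. E2F7, a repressive E2F, rose to 21.0 ± 1.61 against 9.10 ± 1.21 (1.13), and the CDK inhibitors CDKN1C and CDKN1B fell to 6.13 ± 0.65 and 19.1 ± 2.21 against 22.5 ± 0.94 and 33.5 ± 2.75 (-1.73 and -0.78). Upstream of E2F, CCND1, the cyclin that starts RB phosphorylation, read 66.6 ± 5.14 at 240 ug/ml against 5.63 ± 1.16 in control (3.36). Of its kinases CDK6 was called higher at that dose, while CDK4 was not called (311 against 386, limma adjusted p = 0.0616). The list of D cyclins and their kinases had 3, 3 and 2 of 5 higher (60%, 60% and 40%) and none lower at the 3 doses. Other nucleotide supply genes had 2, 3 and 3 of 14 higher (14.3%, 21.4% and 21.4%), near the share over all genes at 240 ug/ml. Their highest change was in CTPS1, which makes CTP (115 ± 14.3 against 57.3 ± 3.50, 0.99). Checkpoint genes had 0, 1 and 3 of 12 higher (0%, 8.33% and 25%), below the share over all genes at 60 and 120 ug/ml. Lower were 2, 1 and 2 (16.7%, 8.33% and 16.7%). The median log2 fold change of this list was -0.15, -0.11 and 0.08 at the 3 doses, and at 240 ug/ml it ranged from -0.55 to 0.64. The highest was ATR, the kinase that senses stalled forks, at 10.7 ± 0.92 against 6.57 ± 0.93 (0.64). Of 15 chromatin replication genes 4, 8 and 8 rose (26.7%, 53.3% and 53.3%) and 1, 1 and 2 fell, with DNMT1, which copies DNA methylation, at 78.2 ± 7.50 against 50.6 ± 9.01 (0.63).

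**Figure D5:**
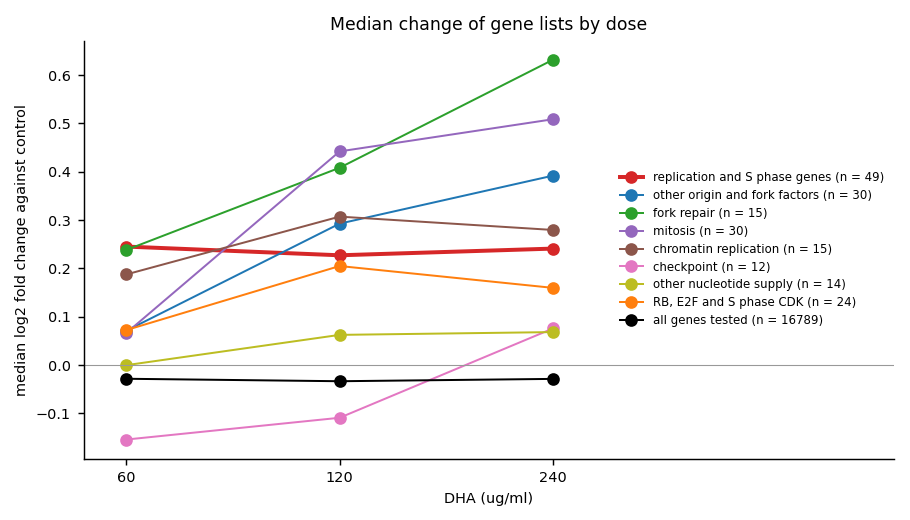
Median log2 fold change against control of the 49 genes (thick red) and of 7 other gene lists, by DHA dose in ug/ml, with all 16789 genes tested in black. The 49 genes stand at 0.25, 0.23 and 0.24 (0.14 at 60 ug/ml without the third library of that dose, 0.30 at 240 ug/ml without its second library), while the mitosis list stands at 0.07, 0.44 and 0.51 and fork repair at 0.24, 0.41 and 0.63.

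Markers of cell types, among them those of the epithelial lineage of HK-2 itself, differed between groups as well. Of 7 fibroblast markers 3 were tested, LUM, DCN and COL1A1, and all 3 fell at 120 and 240 ug/ml; the list summed to between 38.8 and 65.9 at 240 ug/ml, against 246.9 to 342.3 in control. Of 5 epithelial markers 1, 1 and 0 were called higher and 1, 3 and 3 lower at 60, 120 and 240 ug/ml. Over all genes 8.89%, 15.9% and 19.7% were called higher and 10%, 20.8% and 23.5% lower. The 3 lower at 240 ug/ml were EPCAM, KRT8 and CDH1. KRT18 and KRT19 had log2 fold changes above 0 there, at most 0.24, and were not called. The epithelial list summed to 631 to 721.7 at 240 ug/ml, against 691 to 734.5 in control. Its mean sum was 763, 731 and 682 at 60, 120 and 240 ug/ml, against 707 in control. Proximal tubule markers summed to 332.3 to 402.4 at 240 ug/ml, against 394.4 to 424.6 in control. Endothelial markers stood at or near 0 in every library, and of 6 leukocyte markers CD68 alone was tested, with PTPRC and CD3E at 0. CD68 fell at 240 ug/ml, to 82.9 ± 14.2 against 126 ± 15.2 in control (log2 fold change -0.61, limma adjusted p = 0.0279), and the list summed to 72.8 to 99.7 against 110.9 to 140.7. The part of these shifts in the changes of the replication genes was not tested.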

How the data were processed

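RNA of HK-2 cells was measured in 12 libraries, 3 in each of 4 groups taken from the sample titles. Per the labels' protocols, poly(A) RNA was copied with a dUTP-marked second strand and read paired-end on a DNBSEQ instrument. The deposited table holds a normalized signal for each of 267165 transcripts, read as such from library totals between 791808 and 1228979 whose geometric mean is 999925, because the sources used here name no unit. The build was GRCh38.p14, per the submitters' processing notes, and no source used here gives the aligner, the quantifier or its strand setting. Depth is unknown, so no counting interval could be given.

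Transcripts were matched to GENCODE release 29 (202305 matched, 75.72%, holding 93.81% to 94.68% of each library's total) and summed per gene, so a sum can miss an unmatched transcript. The 16789 genes that reached a signal of 1 in 3 or more libraries were tested with limma 3.58.1 (trend) in R 4.3.3 on log2(signal + 1), which understates changes of low genes, with 1 mean per group and no covariate. Two-sided p-values were Benjamini-Hochberg adjusted over all genes and called at 0.05. The procedure was first tested on simulated data. Tables were handled with Python 3.11.15 and pandas 2.3.3.

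The 49 genes, their roles and the other lists were chosen with earlier results of these data known. Values per library are given for the 6 highest and 6 lowest called genes at each dose and the 3 genes of each role with the highest level, and up to 4 genes of each other list are named, those with the largest called changes at 240 ug/ml (lists of 6 or fewer may be named whole). Values per library of RFC1, POLA1 and MCM5, the tubule markers named and the transcripts named fall outside this and were chosen after their values were seen. Alternatives were other pseudocounts, filters, scalings, GC and length trends, a replicate block, coding transcripts alone, compared groups alone and each library left out. Promoter letters came from RefSeq (GRCh38.p14).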

Additional observations from a re-analysis of the deposited data

How the results depend on the processing

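Of 64 calls on the 49 genes, 41 to 60 were kept when 1 library was left out, and 42 with no filter on low values. Leaving out 1 library gave 7 to 16 higher and 0 to 1 lower at 60 ug/ml, 1 to 2 lower at 120, 12 to 21 higher and 1 to 2 lower at 240, and 1 to 11 higher and 0 to 3 lower at 240 against 60 ug/ml. Over all genes the same gave 1888 to 3435 calls at 60 ug/ml and 2056 to 5003 at 240 against 60 ug/ml. With no filter, 60 ug/ml had 10 higher and 0 lower. With equal library totals 41 were higher at 120, 42 at 240 and 0 lower at 60 ug/ml, and over all genes 2782, 6090 and 7205 were higher and 657, 1378 and 1531 lower at the 3 doses. That scaling turned the sign of 9, 9 and 7 of the 49 at the 3 doses and of 16 at 240 against 60 ug/ml, PCNA and GINS2 at 240 ug/ml among them (0.17 and 0.11, not called). Among those called under either scaling it turned RFC2 (0.34, limma adjusted p = 0.0351), PRIM1 (0.34, 0.0472) and RPA1 (0.32, 0.0413) at 120, POLE2 (0.38, 0.0328) at 240, and MCM3 (0.0033, 0.985) at 240 against 60 ug/ml.

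The counts for 240 against 60 ug/ml (3 higher, 3 lower) were the least stable: higher and lower counts were 1 and 0 with no filter, 16 and 0 with equal totals, 7 and 1 with quantile normalization, 1 and 0 with compared groups only, and 1 and 0 with the GC trend subtracted. Higher counts alone were 7 with a signal of at least 5, and 5 with coding transcripts only or with the length trend subtracted. Over all genes 2064 were called there with compared groups only and 2764 with the GC trend subtracted. In 2 settings chosen after seeing the data, leaving out the third library of every group gave 6 higher and 0 lower at 60 (1241 calls over all genes) and 9 and 0 at 240 against 60 ug/ml, and leaving out the third library at 60 and the second at 240 ug/ml gave 2 lower at 120 and 12 and 1 at 240 against 60 ug/ml. The cause was not tested.

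Replicate numbers were not taken to pair the libraries: deviations of same-numbered libraries correlated by -0.02 to 0.24 over all genes and by -0.27 to 0.63 over the 49 genes (0.23 to 0.63 between the third libraries), and 9 of 12 libraries correlated best with their own number. A replicate block kept all 64 calls and added 29, with 21, 27 and 25 genes higher at 60, 120 and 240 ug/ml and 12 higher and 5 lower at 240 against 60 ug/ml. With the block and the GC trend subtracted, 34 were higher at 120 and 33 at 240, and 9 higher and 0 lower at 240 against 60 ug/ml.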
